A study of Mus musculus with 4 samples.

Results

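Oligodendrocyte lineage and myelin genes were examined in the hippocampus of *Lsd1* KI mice. They are a list of 32 genes, chosen by symbol for their place in this lineage and matched to their Ensembl gene IDs, out of 26328 genes listed in at least 1 sample. All 32 were listed in all 4 samples and all 32 passed the filter on low values, which left 18436 genes for testing. *Lsd1* KI mice carry an LSD1 in which the serine that PKCα phosphorylates is replaced by alanine, on both alleles, so the change is carried by every cell of the mouse and not by a single cell type. LSD1 is a histone demethylase, an enzyme that removes methyl groups from histone tails. Poly(A) RNA was sequenced from 2 WT and 2 *Lsd1* KI samples of hippocampal tissue, all from male mice of the C57BL/6 strain, with no treatment named for either group. The sources used here do not say whether each sample came from a single mouse, so a spread between samples may or may not be a spread between mice. The labels give an age of 8 to 15 weeks for the littermates used in behavior and no separate age for the sequenced mice. The samples are called WT 1, WT 2, KI 1 and KI 2, and the labels do not say whether samples with the same number were paired.

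Oligodendrocytes are the glia of the brain that wrap axons in myelin, a stack of membrane rich in cholesterol and galactolipids and held together by a small set of abundant proteins. They arise from dividing progenitors that carry the receptor PDGFRα and the proteoglycan NG2, pass through a committed stage, and then switch on the sheath genes under SOX10, OLIG2 and MYRF. In the hippocampus they are found among the neurons of all layers and are most dense in its fiber tracts, the alveus and the fimbria.

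Expression was measured in RPKM, which divides the reads of a gene by its exon length and by the depth of the library, so that genes of different length can be compared in level. The depth worked out from the step that 1 read makes ran from 8827967 mapped reads in WT 2 to 14949756 in KI 2. *Kdm1a*, the gene that encodes LSD1, was at 11.6, 11.2, 11 and 11.2 RPKM in WT 1, WT 2, KI 1 and KI 2, and since the knock-in replaces 1 amino acid this level does not check the labels. All 5 hippocampal markers were present in every sample, with sums of 197.0 to 198.7 RPKM in WT and 189.7 to 203.8 RPKM in KI, although single markers differed widely between the KI samples. KI 1 stood apart in the 5 markers of choroid plexus and ependyma, which summed to 67.25 RPKM there against 21.45 in KI 2 and 22.22 to 28.07 in WT, a gap carried mostly by 1 marker, *Ttr*. None of these markers was at 0 in any sample. The comparison of genotypes is therefore also given without KI 1.

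The genes of the lineage spanned a wide range of levels. *Mbp*, encoding myelin basic protein, was the most abundant with a rank of 98 among all listed genes by mean RPKM. It measured 280.8 RPKM in WT 1, 326.5 in WT 2, 360.8 in KI 1 and 274.2 in KI 2. *Mobp*, encoding another basic protein of the compact sheath, came next with 132.8, 145.2, 180.4 and 131.7 RPKM in the same order. These sheath genes were higher in WT 2 and KI 1 than in WT 1 and KI 2, so each genotype held a higher and a lower sample. The lowest member was *Enpp6*, encoding a choline phosphodiesterase of newly forming oligodendrocytes, with 1.44, 1.64, 1.53 and 0.88 RPKM and a rank of 15125. Many neighbors in the order of levels could not be told apart by their spread. *Mal*, *Trf*, *Cnp* and *Mag* followed each other between 58.62 and 105.6 RPKM, and each overlapped the next in its range over the samples.

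**Figure D1:**
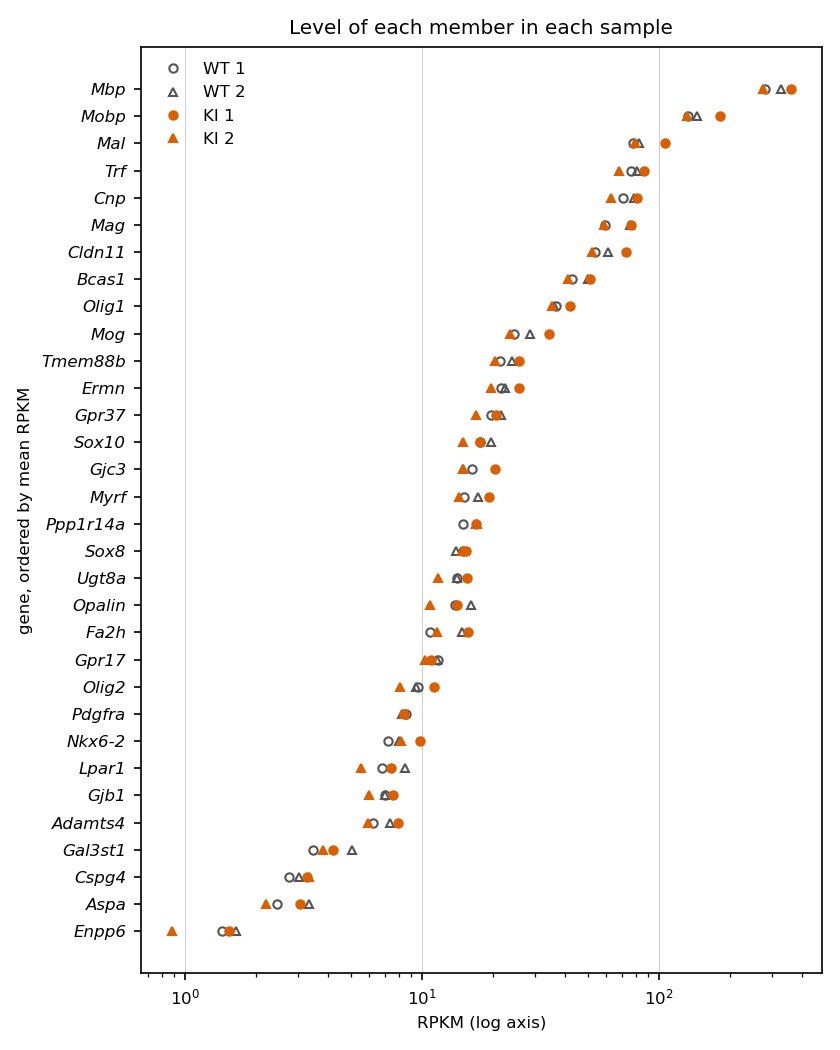
Level of each of the 32 genes in RPKM (log axis) in the 4 samples, ordered by mean level, with open symbols for WT and filled symbols for KI. The filled circle (KI 1) is the highest sample in 21 genes and the filled triangle (KI 2) the lowest in 23, as for *Mobp* at 180.4 and 131.7 RPKM.

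To ask whether the lineage differed between genotypes, KI was compared with WT in limma on log2(RPKM + 1) over all 18436 genes. None of the 32 genes passed both thresholds, which were 0.1 for the adjusted p and 1.2-fold for the size of the change, and 0 of 18436 genes did (0% of all tested genes). At an unadjusted p under 0.05 the count was also 0 of the 32, against 9.62% of all tested genes. The lowest adjusted p of any member was 0.561 in limma, for *Gpr17*. The median log2 fold change of KI over WT was 0.008 over the members and 0.013 over all tested genes, and single members ran from -0.24 (*Opalin*) to 0.22 (*Nkx6-2*). The sign was positive in 18 members and negative in 14. In bulk tissue, fewer cells of this lineage and less RNA per cell cannot be told apart. The labels do not go beyond calling the samples replicates, so the p-values cover the spread between these samples only, and with 2 against 2 the smallest p an exact two-sided permutation test can give is 0.333.

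In 28 of the 32 genes the KI and WT values overlapped, and 42.2% of all tested genes had groups that did not. The pair of KI values was above the pair of WT values in 3 genes, *Nkx6-2*, *Cspg4* and *Ppp1r14a*, while 24.0% of all tested genes had this order. *Gpr17* alone had both KI values below both WT values, an order seen in 18.1% of all tested genes. With median-of-ratios scaling the counts were 2 and 2, since *Ppp1r14a* then overlapped and *Sox10* did not, with scaled values of 17.61 and 19.62 RPKM in WT and 17.44 and 14.74 RPKM in KI. In 30 of the 32 the difference of the group means was no larger than the wider difference between samples of the same genotype, which was so in 70.5% of all tested genes. The exceptions were *Cspg4* and *Gpr17*, both genes of the earlier stages. The median of the members changed sign with the samples that entered, at -0.16 without KI 1 and 0.14 without KI 2.

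**Figure D2:**
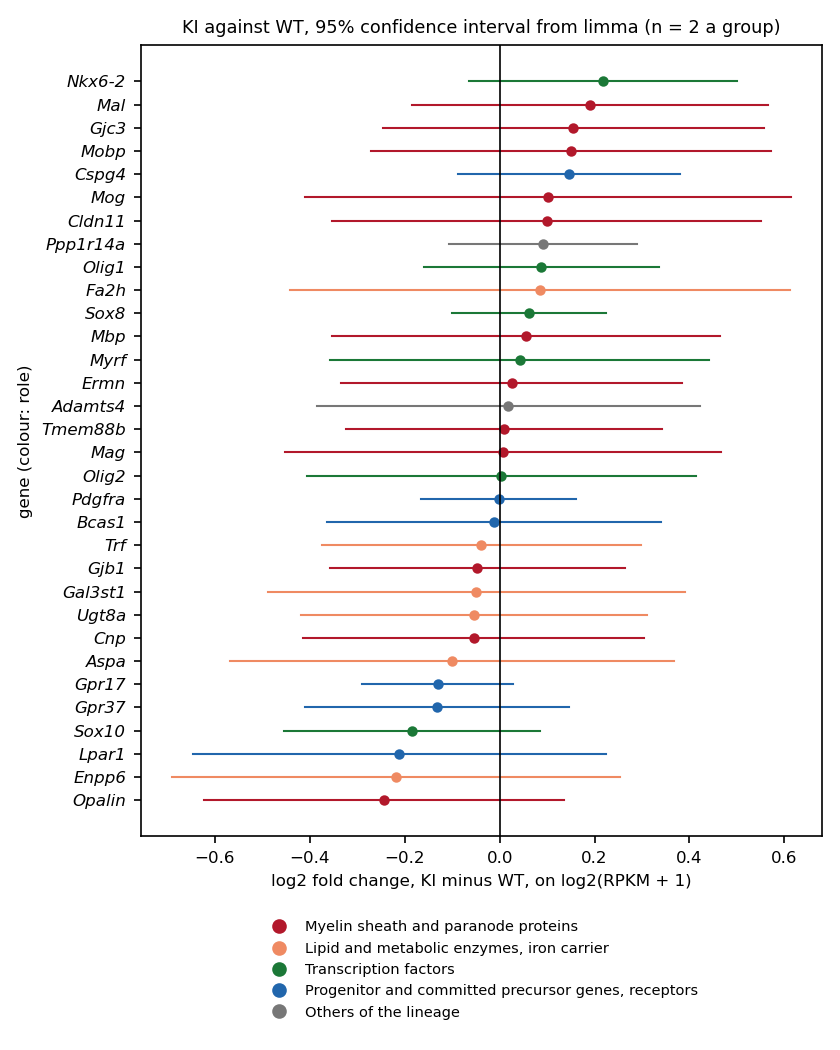
Log2 fold change of KI over WT on the log2(RPKM + 1) scale for each gene, with the 95% confidence interval from limma (n = 2 a group), colored by role and ordered by size. All 32 intervals cross 0, from *Opalin* at -0.24 to *Nkx6-2* at 0.22.

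The 12 genes of the myelin sheath and its paranodes were highest as a group, with summed levels of 778.9 and 882.0 RPKM in WT and 1004.0 and 754.2 RPKM in KI. *Mbp* differed between genotypes by a log2 fold change of 0.055 (SE 0.155, adjusted p = 0.940 in limma), with mean levels of 303.6 ± 32.3 RPKM in the WT samples and 317.5 ± 61.2 RPKM in the KI samples (SD over 2 samples). *Mobp* (chr9:120149707-120181484 in GRCm38, plus strand) had a log2 fold change of 0.15 (SE 0.16, adjusted p = 0.797 in limma). *Mal* (chr2:127633226-127656695, minus strand), encoding a proteolipid of myelin membrane rafts, measured 77.92 and 82.61 RPKM in WT and 105.6 and 79.56 RPKM in KI. Its log2 fold change of 0.19 (SE 0.14, adjusted p = 0.708 in limma) was the second highest of the members, with KI 1 far above the WT values and KI 2 between them. *Gjc3* (chr5:137953461-137963098, minus strand), encoding a connexin of glial gap junctions, followed with 16.24 and 14.86 RPKM in WT and 20.28 and 14.94 RPKM in KI (log2 fold change 0.16, SE 0.15, adjusted p = 0.781 in limma). Here too KI 1 was above the other samples, which lay close together.

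*Mog*, encoding a surface glycoprotein of the outermost lamella, measured 24.41 and 28.64 RPKM in WT and 34.34 and 23.52 RPKM in KI. *Mag*, encoding the adhesion glycoprotein that faces the axon, measured 58.92 and 75.3 RPKM in WT and 76.38 and 58.62 RPKM in KI. *Cldn11*, encoding the claudin of the tight junctions within the sheath, measured 53.93 and 61.18 RPKM in WT and 72.66 and 52.16 RPKM in KI. In all 3 genes the KI values enclosed the WT values, with KI 1 the highest and KI 2 the lowest sample. *Cnp*, encoding the cyclic nucleotide phosphodiesterase of non-compact myelin, measured 70.18 and 78.38 RPKM in WT and 81.02 and 62.85 RPKM in KI. *Ermn*, encoding a cytoskeletal protein of mature oligodendrocytes, had 21.64 and 22.41 RPKM in WT and 25.77 and 19.51 RPKM in KI. *Tmem88b* (21.41 to 25.58 RPKM but for KI 2 at 20.29) and *Gjb1*, encoding another connexin (6.97 to 7.58 RPKM but for KI 2 at 5.96), had the same enclosing order. *Opalin* (chr19:41061710-41077113, minus strand), encoding a transmembrane glycoprotein of central myelin, was the member with the lowest log2 fold change at -0.24 (SE 0.14, adjusted p = 0.635 in limma). Its values of 13.71 and 16.02 RPKM in WT and 14.07 and 10.85 RPKM in KI overlapped, since KI 1 lay between the WT values.

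Stretches before the start sites of *Mobp*, *Mog*, *Cnp* and *Pdgfra* are shown so that their letters can be read. *Mobp*, *Mog* and *Cnp* were picked because their stretches hold letters that SOX proteins or MYRF bind, and *Pdgfra* as a progenitor gene. The contrast in letters was set by this choice, so it says nothing about the difference between KI 1 and KI 2. The stretches are RefSeq sequences of GRCm38.p6 from the 250 bases before the start, 5′ to 3′ on the strand of the gene. Bases inside the gene as GENCODE M21 annotates it are left out. Capitals mark the letters ACAAAG or ACAATG, which SOX proteins bind, and CTGGCAC or CTGGTAC, which MYRF binds, searched on both strands. *Mobp* is from chr9:120149492-120149706 (plus strand), *Mog* from chr17:37023399-37023648 (minus strand), *Cnp* from chr11:100574689-100574903 (plus strand) and *Pdgfra* from chr5:75152001-75152250 (plus strand).
Mobp: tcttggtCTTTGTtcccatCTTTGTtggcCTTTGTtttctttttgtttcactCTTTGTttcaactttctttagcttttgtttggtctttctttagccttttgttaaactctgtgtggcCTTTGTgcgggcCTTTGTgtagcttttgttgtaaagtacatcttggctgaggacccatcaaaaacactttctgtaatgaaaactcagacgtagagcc
Mog: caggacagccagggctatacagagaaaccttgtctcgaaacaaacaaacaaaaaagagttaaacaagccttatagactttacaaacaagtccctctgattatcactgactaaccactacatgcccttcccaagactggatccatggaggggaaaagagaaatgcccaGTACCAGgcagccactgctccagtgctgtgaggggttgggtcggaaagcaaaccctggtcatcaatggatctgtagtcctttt
Cnp: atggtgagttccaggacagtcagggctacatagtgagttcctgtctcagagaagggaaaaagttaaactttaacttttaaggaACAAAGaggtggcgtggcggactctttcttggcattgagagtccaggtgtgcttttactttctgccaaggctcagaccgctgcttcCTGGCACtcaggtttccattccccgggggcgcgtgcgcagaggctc
Pdgfra: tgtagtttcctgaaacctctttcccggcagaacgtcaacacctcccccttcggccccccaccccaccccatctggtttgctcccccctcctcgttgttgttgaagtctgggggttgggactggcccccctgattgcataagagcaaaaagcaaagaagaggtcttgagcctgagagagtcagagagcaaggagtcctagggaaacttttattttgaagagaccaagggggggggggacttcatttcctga

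The *Mobp* stretch holds 6 matches to the SOX letters, all as CTTTGT on the strand shown, the *Cnp* stretch holds 1 SOX and 1 MYRF match, the *Mog* stretch holds 1 MYRF match, and the *Pdgfra* stretch holds none. The RefSeq table had an entry for 23 of the 32 genes, and some genes had more than 1 entry, which made 32 entries that partly overlap. SOX letters were in 15 of the 32 entries, against 25.2% of 32851 mouse promoters of the same length. MYRF letters were in 5 of the 32 entries, against 5.93%, and belonged to *Cnp*, *Lpar1*, *Mag* and *Mog*. CAGCTG, an E-box that OLIG2 can bind, was in 1 entry (*Aspa*), against 13.0%, and TATAAA was in 3 (*Aspa*, *Gjb1* and *Olig2*), against 12.4%. A match says only that the letters are there. No binding was measured in these samples.

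The 6 genes of lipid and small-molecule metabolism include the enzymes that make the galactolipids of myelin. *Ugt8a*, encoding the transferase that makes galactocerebroside, measured 14.02 and 14.01 RPKM in WT and 15.54 and 11.65 RPKM in KI. *Fa2h*, encoding the hydroxylase of the fatty acids in these lipids, measured 10.83 and 14.76 RPKM in WT and 15.7 and 11.56 RPKM in KI. *Gal3st1*, encoding the transferase that adds sulfate to make sulfatide, measured 3.47 and 5.05 RPKM in WT and 4.22 and 3.83 RPKM in KI. The KI values of *Ugt8a* enclosed its WT values, while those of *Gal3st1* fell between its WT values, and their log2 fold changes were -0.054 and -0.049. *Aspa*, encoding aspartoacylase, which splits N-acetylaspartate, had 2.44 and 3.33 RPKM in WT and 3.05 and 2.2 RPKM in KI. *Enpp6* (chr8:46986887-47096762, plus strand) had the second lowest log2 fold change at -0.22 (SE 0.18, adjusted p = 0.733 in limma). KI 2 was the low sample at 0.88 RPKM, or about 84 reads, while KI 1 at 1.53 RPKM lay between the WT values. *Trf*, encoding the iron carrier transferrin, measured 76.41 and 80.9 RPKM in WT and 86.7 and 67.52 RPKM in KI. It shares 2108 of its 3320 exon bases with the annotated gene *Gm20425*, so its level is uncertain.

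Among the 6 transcription factors, *Nkx6-2* (chr7:139579376-139582797, minus strand), a homeobox factor of the lineage, had the highest log2 fold change of all members. It measured 7.16 and 7.96 RPKM in WT and 9.78 and 8.18 RPKM in KI, with means of 7.56 ± 0.57 and 8.98 ± 1.13 RPKM (SD, n = 2 each). Both KI samples were above both WT samples, although KI 2 exceeded WT 2 by less than WT 2 exceeded WT 1. The log2 fold change was 0.22 (SE 0.11, 95% interval -0.065 to 0.5, adjusted p = 0.578 in limma), and it was 0.10 to 0.33 as each sample was left out. The library kit does not mark strand, and 246 exon bases of *Nkx6-2* overlap *Inpp5a* on the other strand, which measured 9.74, 9.89, 12.7 and 11 RPKM in WT 1, WT 2, KI 1 and KI 2. The part of *Inpp5a* in the value of *Nkx6-2* was not tested.

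*Sox10*, which drives the lineage from specification to myelination, measured 17.48 and 19.62 RPKM in WT and 17.53 and 14.92 RPKM in KI (log2 fold change -0.18, SE 0.10, adjusted p = 0.612 in limma). KI 1 was level with WT 1, so the groups overlapped. *Olig1* and *Olig2*, basic helix-loop-helix factors of the lineage, both had KI values that enclosed the WT values. *Olig2* measured 9.6 and 9.39 RPKM in WT and 11.24 and 8.04 RPKM in KI, and *Olig1* measured 36.64 and 36.05 RPKM in WT and 42.31 and 35.4 RPKM in KI. *Myrf*, the activator of the sheath genes, was at 15.08 and 17.21 RPKM in WT and 19.19 and 14.37 RPKM in KI. *Sox8*, a relative of *Sox10*, differed little between any of the samples, with 14.85 and 13.88 RPKM in WT and 15.28 and 14.78 RPKM in KI.

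The 6 genes of progenitors, committed precursors and receptors held the most level members. *Pdgfra* (chr5:75152292-75198215, plus strand), encoding the growth factor receptor that defines progenitors, measured 8.55 and 8.22 RPKM in WT and 8.37 RPKM in each KI sample. Its log2 fold change was -0.002 (SE 0.062, 95% interval -0.17 to 0.16, adjusted p = 0.994 in limma), on about 728 to 1254 reads a sample. *Cspg4* (chr9:56865033-56899870, plus strand), encoding the NG2 proteoglycan, measured 2.75 and 3.04 RPKM in WT and 3.28 and 3.33 RPKM in KI. Both KI samples were above both WT samples and close to each other (log2 fold change 0.15, SE 0.09, 95% interval -0.088 to 0.38, adjusted p = 0.643 in limma). *Gpr17*, encoding a receptor that marks committed precursors, measured 11.72 and 11.62 RPKM in WT and 10.87 and 10.29 RPKM in KI, with both KI samples below both WT samples. Its log2 fold change was -0.13 (SE 0.06, 95% interval -0.29 to 0.028, unadjusted p = 0.0865 and adjusted p = 0.561 in limma), and it stayed between -0.17 and -0.095 as each sample was left out. Of its exon bases, 188 overlap *Lims2* on the other strand. None of these 3 genes passed the test.

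The remaining receptors and the early myelinating gene *Bcas1* followed the order of the sheath genes more closely. *Bcas1* measured 42.93 and 50.08 RPKM in WT and 51.37 and 41.11 RPKM in KI, although 440 of its exon bases lie under the antisense gene *Bcas1os1*. *Lpar1*, encoding a receptor for lysophosphatidic acid, measured 6.78 and 8.48 RPKM in WT and 7.41 and 5.54 RPKM in KI (log2 fold change -0.21, SE 0.17, adjusted p = 0.719 in limma), the third lowest value of the members. *Gpr37*, encoding an orphan receptor of differentiating oligodendrocytes, measured 19.59 and 21.46 RPKM in WT and 20.45 and 16.96 RPKM in KI. In both receptors KI 2 was the lowest sample and KI 1 lay among the WT values. Of the last pair, *Ppp1r14a* (chr7:29289308-29293801, plus strand), encoding an inhibitor of myosin phosphatase, measured 14.88 and 16.85 RPKM in WT and 16.89 and 17.01 RPKM in KI, where KI 1 exceeded WT 2 by very little (log2 fold change 0.092, SE 0.075, adjusted p = 0.732 in limma). *Adamts4*, encoding a protease of matrix proteoglycans, measured 6.23 and 7.35 RPKM in WT and 7.94 and 5.92 RPKM in KI.

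**Figure D3:**
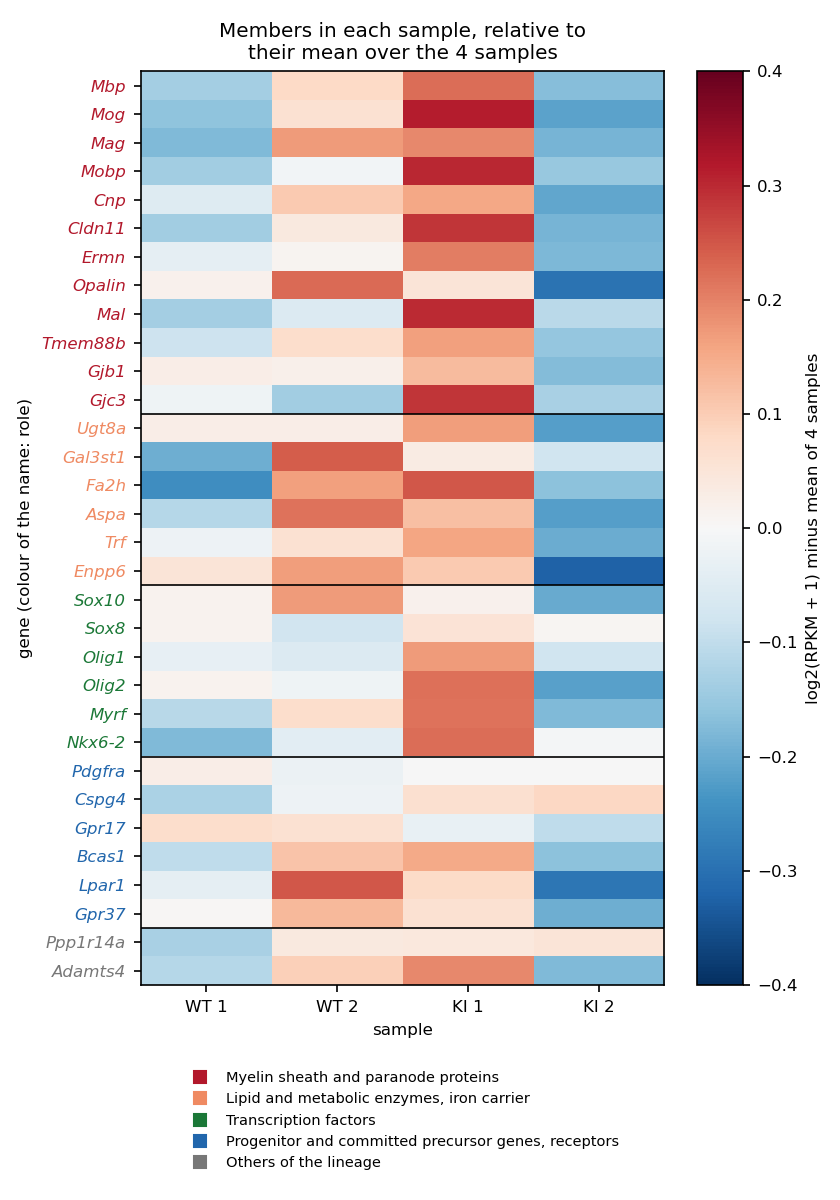
Each gene in each sample as log2(RPKM + 1) minus its mean over the 4 samples, grouped by role, with red above and blue below that mean. KI 1 is above KI 2 in 30 of the 32 rows, and the rows of *Pdgfra* and *Sox8* stay pale throughout.

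For most of these genes the samples of the same genotype differed by more than the genotypes did. KI 1 was higher than KI 2 in 30 of the 32 genes, compared with 47.9% of all tested genes, with *Cspg4* and *Ppp1r14a* the exceptions and *Pdgfra* at 8.37 RPKM in both. It was higher by at least 1.2-fold on RPKM + 1 in 22 of the 32, compared with 8.02% of all tested genes, and lower by that fold in 0 of the 32, compared with 8.34%. The median difference of KI 1 minus KI 2 on the log2 scale was 0.36 over the members and -0.007 over all tested genes. These counts describe 4 samples, they were noticed in the data, and members that share a cell type are not independent, so no test was made on them.

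In WT the direction was WT 2 over WT 1, and smaller. WT 2 was higher in 24 of the 32 genes, compared with 52.3% of all tested genes, and higher by at least 1.2-fold in 5 (*Mag*, *Fa2h*, *Gal3st1*, *Aspa* and *Lpar1*), compared with 8.30%. Both orders held together in 22 of the 32, compared with 26.1% of all tested genes. KI 1 was the highest sample in 21 of the 32 (26.5% of all tested genes) and KI 2 the lowest in 23 (20.5%), and both were so in 16 (6.33%). The summed level of the 32 genes was 1102 RPKM in WT 1, 1233 in WT 2, 1373 in KI 1 and 1056 in KI 2, which was 0.315%, 0.354%, 0.389% and 0.297% of the summed RPKM of all genes. The WT samples thus lay between the KI samples in sum.

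The difference between the KI samples was not the same for every role. All 12 sheath genes were higher in KI 1 than in KI 2 by at least 1.2-fold, as were 5 of the 6 metabolic genes, 2 of the 6 transcription factors (*Olig2* and *Myrf*), 2 of the 6 genes of progenitors, precursors and receptors (*Bcas1* and *Lpar1*) and *Adamts4*. The median log2 difference was 0.39 in the sheath genes, 0.37 in the metabolic genes, 0.24 in the transcription factors and 0.16 in the progenitor group. From the reads behind each value, the ratio of KI 1 to KI 2 was 1.32 for *Mbp* (95% exact interval 1.30 to 1.33), 1.46 for *Mog* (1.31 to 1.62) and 1.37 for *Mobp* (1.34 to 1.4). For *Enpp6* it was 1.74, with a wide interval of 1.32 to 2.31. By contrast the ratio was 1.00 for *Pdgfra* (0.924 to 1.08), 0.985 for *Cspg4* (0.876 to 1.11), 1.06 for *Gpr17* (0.957 to 1.17) and 1.03 for *Sox8* (0.928 to 1.15). These intervals cover counting error only, and whether the roles differ was not tested. The read counts of *Enpp6*, *Pdgfra* and *Cspg4* are approximate, so their intervals are too.

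**Figure D4:**
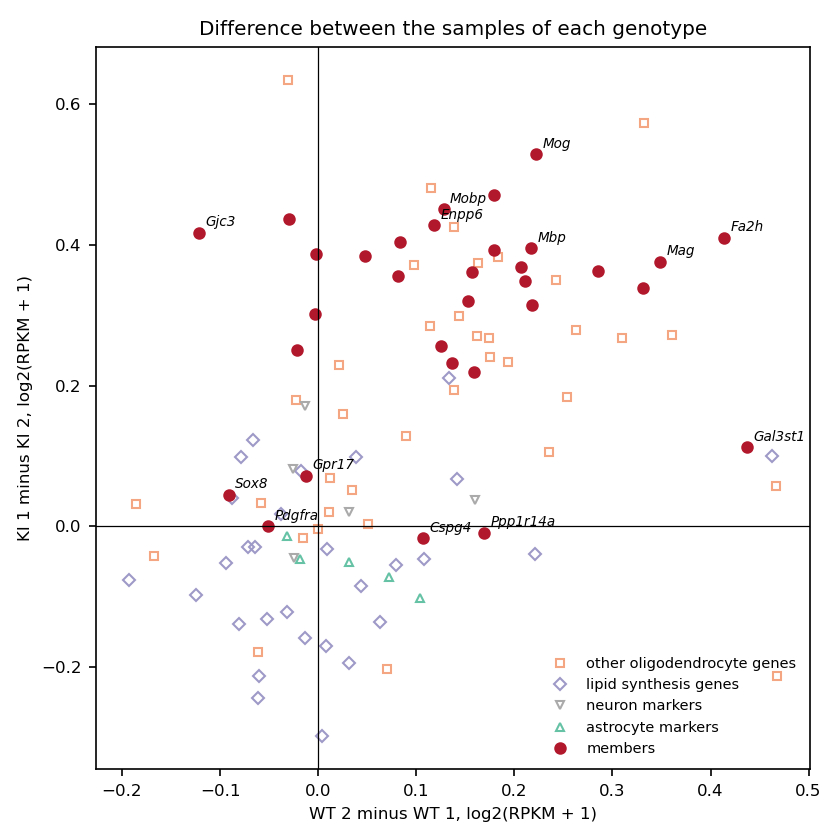
Difference between samples of the same genotype on the log2(RPKM + 1) scale, WT 2 minus WT 1 on the horizontal and KI 1 minus KI 2 on the vertical axis, for the 32 members (filled) and for other lists. Members sit mostly in the upper right, with *Mog* at 0.53 on the vertical axis, while *Pdgfra*, *Sox8*, *Gpr17*, *Cspg4* and *Ppp1r14a* sit near 0 on that axis.

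A second list of 38 oligodendrocyte genes, none of them members, was read in the same way, and 37 of them passed the filter. None passed the thresholds in limma, and 4 had an unadjusted p under 0.05, with *Cryab* higher and *St18*, *Tnr* and *Ptprz1* lower in KI (6.30% and 3.33% of all tested genes in the 2 directions). KI 1 was higher than KI 2 in 31 of the 37, and by at least 1.2-fold in 15, against 47.9% and 8.02% of all tested genes. The lowest log2 fold change was that of *St18*, encoding a zinc finger factor, with 6.72 and 6.59 RPKM in WT and 5.34 and 4.6 RPKM in KI (log2 fold change -0.36, SE 0.09, unadjusted p = 0.0119 and adjusted p = 0.426 in limma). *Tnr* and *Ptprz1*, genes of the perineuronal matrix and its receptor that progenitors express, had log2 fold changes of -0.21 and -0.20 with adjusted p-values of 0.441 and 0.435 in limma. In these 3 genes both KI samples lay below both WT samples, as in *Gpr17*. Other progenitor genes of the list went the other way, *Vcan* at 0.13, *Matn4* at 0.18 and *Neu4* at 0.064, and in *Vcan* and *Matn4* both KI samples lay above both WT samples. Of the 37 tested, 5 genes had KI above WT without overlap and 5 below (24.0% and 18.1% of all tested genes). The highest was *Gamt*, encoding an enzyme of creatine synthesis, at 0.35 (adjusted p = 0.569 in limma).

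Of 29 genes of sterol and sphingolipid synthesis, on which myelin membrane draws, none passed the thresholds in limma and 2 had an unadjusted p under 0.05, both higher in KI, against 9.62% of all tested genes in either direction. *Fdps*, encoding farnesyl diphosphate synthase, was among them, with 13 and 14.4 RPKM in WT and 16.3 and 15.5 RPKM in KI (log2 fold change 0.20, SE 0.07, unadjusted p = 0.0418 and adjusted p = 0.506 in limma). *Galc*, which breaks down galactocerebroside, had the lowest value at -0.14. KI 1 was higher than KI 2 in 9 of the 29 (47.9% of all tested genes), and in 0 of them by at least 1.2-fold (8.02%). Both KI samples were above both WT samples in 13 of the 29 and below them in 2, against 24.0% and 18.1% of all tested genes.

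Markers of other cells were read beside these values. The summed level of the 5 astrocyte markers was 252.2 to 260.2 RPKM in KI and 254.1 to 256.0 in WT, and that of the 5 neuron markers was 939.1 to 961.6 in KI and 961.5 to 966.1 in WT. KI 1 was the lowest sample for the astrocyte sum and not the highest for the neuron sum. The choroid plexus and ependyma sum was highest in KI 1, then in WT 2, WT 1 and KI 2, the same order as the sum of the 32 genes. *Ttr*, encoding transthyretin, measured 8.13 and 13.8 RPKM in WT and 51.3 and 8.89 RPKM in KI. *Folr1*, under the filter on low values, was at 0.575 RPKM in KI 1 against 0.262 to 0.345 in the other samples. The remaining markers set KI 1 apart less, although KI 1 was above KI 2 in each, an order seen in 47.9% of all tested genes. KI 1 was also the highest sample for *Kl* and *Foxj1*. *Kl* was at 7.05 and 6.72 RPKM in KI 1 and KI 2, and at 4.87 and 5.14 in WT. *Foxj1* was at 4.69 and 3.37 RPKM in KI 1 and KI 2, and at 4.12 and 2.89 in WT. *Ccdc153* was at 3.65 and 2.22 RPKM in KI 1 and KI 2, below its WT values of 4.8 and 5.84. The 5 thalamus markers summed to 21.49 RPKM in KI 1 against 15.5 to 16.82 in the other samples. *Prkcd* at 12.4 RPKM and *Slc17a6* at 6.33 RPKM were highest in KI 1. *Tcf7l2*, *Lef1* and *Rora*, at 1.99 RPKM or less in every sample, were lowest in KI 1, so the markers went both ways. The 5 neocortex markers summed to 28.67 and 30.5 RPKM in WT and 36.73 and 35.01 in KI. Both KI samples were above both WT samples in 4 of the 5, against 24.0% of all tested genes. Of the 5 hippocampal markers, 3 were lower in KI 1 than in KI 2 by at least 1.2-fold, the opposite of the sheath genes. Of all tested genes, 8.34% were lower by that fold. *Prox1*, a marker of dentate granule cells, measured 17.3 and 16.9 RPKM in WT and 10.2 and 13.1 RPKM in KI. *Wfs1*, a marker of pyramidal cells, was at 28.6 RPKM in KI 1 and 50.9 in KI 2, and *Spink8* at 13.2 and 18.1. The other hippocampal markers did not share this order. *Neurod6* was higher in KI 1, at 129 RPKM against 114 in KI 2, and *Zbtb20* was nearly level at 8.19 and 8.15. The 5 markers of Schwann cells, which make myelin in peripheral nerve, summed to 1.11 to 1.775 RPKM over all samples. Microglia markers summed to 52.84 to 57.43 RPKM over all samples, those of endothelium and pericytes to 56.28 to 61.38, and those of striatum to 17.77 and 18.87 in WT and 21.86 and 21.91 in KI. Their part in the result was not tested.

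**Figure D5:**
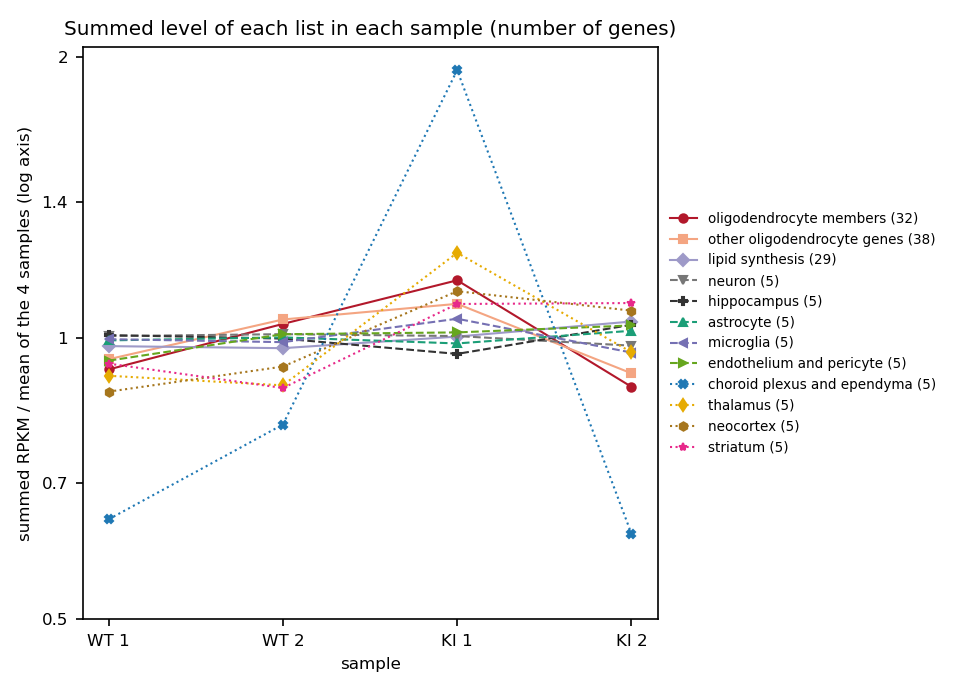
Summed RPKM of each gene list in each sample, divided by its mean over the 4 samples (log axis), with the number of genes in brackets. The 32 members run from 1056 RPKM in KI 2 to 1373 in KI 1, the neuron and astrocyte lines stay nearly flat, and the choroid plexus line peaks in KI 1 at 67.25 RPKM.

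Without KI 1, the sample with the high choroid plexus markers, 0 of the 32 genes passed the thresholds in limma and 3 had an unadjusted p under 0.05 (*Opalin*, *Trf* and *Ugt8a*, all lower in KI), against 6.88% of all tested genes. Without KI 2, again 0 passed and 7 had an unadjusted p under 0.05 (*Cldn11*, *Ermn*, *Gjc3*, *Mal*, *Mobp*, *Nkx6-2* and *Olig1*, all higher in KI), against 8.22% of all tested genes. The sign of the log2 fold change was negative in 28 of the 32 genes in the first case and positive in 25 of the 32 in the second. The median log2 fold change over all tested genes was 0.02 without KI 1 and 0.01 without KI 2. The share of each sign among all tested genes was not counted. Groups did not overlap in 26 of the 32 genes without KI 1 (70.1% of all tested genes) and in 24 without KI 2 (71.7%), compared with 14 without WT 1 (71.6%) and 8 without WT 2 (70.2%). The first 2 fits leave 1 KI sample, which is assumed to vary as the WT samples do. In 22 of the 32 genes the sign changed when some single sample was left out. In the other 10 it did not. KI was higher in *Cspg4*, *Nkx6-2*, *Ppp1r14a* and *Sox8*, and lower in *Enpp6*, *Gpr17*, *Gpr37*, *Lpar1*, *Opalin* and *Sox10*. Some of these came near 0 with a sample left out, as *Gpr37* at -0.004, *Enpp6* at -0.005, *Ppp1r14a* at 0.008 and *Sox8* at 0.016. The share of all tested genes that kept their sign was not counted.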

How the data were processed

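Poly(A) RNA of hippocampus in 2 WT and 2 *Lsd1* KI samples was sequenced in pairs. The authors aligned reads to mm10 with GSNAP, kept unique, proper pairs, and deposited RPKM per gene (Ensembl release 74), 1 table a sample; CASAVA is also named in the processing notes. The authors' own test was not used. Whether reads or pairs were counted is not given in the sources used here. Since RPKM rises in whole-read steps, mapped reads were recovered with GENCODE M21 exon lengths. A gene absent from a table was set to 0. The 18436 genes that reached 0.5 RPKM in 2 or more samples were tested with limma 3.58.1 (R 4.3.3) on log2(RPKM + 1), fitting a trend of variance on mean, and p-values were adjusted over all of them (Benjamini-Hochberg). This scale understates changes of low genes. No count test was used. The code was tested on simulated data. Ratios between samples carry exact Clopper-Pearson intervals. The members and lists were chosen with earlier results of these data known. Genes named with full values are those whose groups did not overlap, the highest and lowest in level, the 3 highest and 3 lowest log2 fold changes, and at least 2 of each role, and of other lists the highest and lowest, apart from items not reported here. *Cryab*, *Tnr*, *Ptprz1*, *Vcan*, *Matn4*, *Neu4*, *Fdps* and the single marker genes were added after their values were seen. Promoter sequences are from RefSeq, and members without an entry were *Adamts4*, *Bcas1*, *Fa2h*, *Gpr17*, *Mbp*, *Myrf*, *Olig1*, *Sox10* and *Trf*. Alternatives were another pseudocount, filters, scalings, fold, no trend, a replicate block, and leaving out each sample.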

Additional observations from a re-analysis of the deposited data

How the results depend on the processing

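With 2 samples a group, the median log2 fold change of the 32 genes ran from -0.164 without KI 1 to 0.142 without KI 2, and the count with groups that did not overlap ran from 8 to 26, beside 70.1% to 71.7% of all tested genes with a sample left out. With a sample left out in turn, 22 genes changed sign. Their log2 fold changes ran from -0.166 to 0.202 for Adamts4, -0.27 to 0.069 for Aspa, -0.17 to 0.145 for Bcas1, -0.137 to 0.334 for Cldn11, -0.236 to 0.126 for Cnp, -0.167 to 0.218 for Ermn, -0.122 to 0.292 for Fa2h, -0.268 to 0.169 for Gal3st1, -0.198 to 0.105 for Gjb1, -0.053 to 0.364 for Gjc3 and -0.181 to 0.195 for Mag. They ran from -0.012 to 0.392 for Mal, -0.142 to 0.252 for Mbp, -0.075 to 0.375 for Mobp, -0.163 to 0.365 for Mog, -0.155 to 0.239 for Myrf, -0.037 to 0.214 for Olig1, -0.215 to 0.222 for Olig2, -0.028 to 0.023 for Pdgfra, -0.15 to 0.17 for Tmem88b, -0.217 to 0.139 for Trf and -0.247 to 0.14 for Ugt8a. No gene of the 32 passed the thresholds in any of the 12 other limma settings. Over all genes the count was 20 (17 higher and 3 lower in KI) without the mean-variance trend and 0 in the others. Quantile normalization gave Mag -0.027, Tmem88b -0.003 and Olig2 -0.008, and median-of-ratios scaling gave -0.010, -0.007 and -0.012, each positive before, so 15 genes were then positive and 17 negative. The cause was not tested. The filter of at least 1 RPKM in every sample left 31 of the 32 genes, without Enpp6. Median-of-ratios scaling also moved the genes without overlap from 3 above and 1 below to 2 and 2. Quantile normalization gave no separate count of groups that did not overlap. Depth limits Gal3st1 and Enpp6, with 91 to 124 and about 84 to 141 reads a sample.

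With the replicate block, 0 genes of all and 0 of the 32 passed. Both replicate numbers occur in both genotypes, so the block cannot change a log2 fold change, and the median is 0.008 by design. The count of genes whose groups did not overlap does not use the block. It is therefore also fixed, at 4 of the 32, beside 42.2% of all tested genes. Neither value shows how far the results depend on the block. Over 18436 genes, deviations from the group means correlated at -0.0249 between samples with the same number. With 2 samples a group this value is the same for both numbers. It cannot tell whether samples with the same number shared a litter, a day or a batch.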
